A study of Bos taurus with 36 samples.

Results

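The response of the liver 6 hours after lipopolysaccharide (LPS) had been infused into the udder was measured by comparing 4 arrays at 6 hours with 8 arrays at -22 hours, 12 of the 36 arrays of the series. An array belonged to the comparison when its title named one of these hours, and no array was chosen by its values. LPS is the outer membrane lipid of Gram-negative bacteria, and its infusion into a milk gland is used as a model of coliform mastitis. The animals were healthy Holstein-Friesian cows in their first lactation that had calved 9 to 12 weeks earlier. At 0 hours each cow received 200 μg of LPS from E. coli serotype 0111:B4 in 10 ml of 0.9% NaCl in the right front gland of the udder, and the left front gland received the NaCl solution alone. The arrays at -22 hours are liver biopsies of 8 such cows before infusion, and those at 6 hours are biopsies of cows 1, 3, 7 and 8, which also have an array at -22 hours. No cow given only NaCl was among the arrays analysed, and the effects of repeated biopsy and of the time of day were not tested here. A biopsy is bulk tissue, in which fewer cells of a type and less RNA per cell cannot be told apart.

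During the acute phase response the liver receives cytokines and bacterial products through the blood and changes the set of proteins that it secretes. Receptors of LPS and of interleukin-1 signal through NF-κB, and receptors of the interleukin-6 family signal through STAT3, and both routes act on genes of acute phase proteins in hepatocytes. The liver also makes glucose, bile acids, urea, heme and ketone bodies, and in a lactating cow it supplies the glucose that the udder turns into lactose.

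Values were log2 intensities of probe sets on the Affymetrix Bovine Genome Array, and array medians lay between 4.15 and 4.37 at -22 hours and between 4.24 and 4.28 at 6 hours. The number of arrays limits the precision. Over all probe sets, pairs of arrays correlated at 0.980 to 0.994 within -22 hours, at 0.987 to 0.993 within 6 hours and at 0.924 to 0.951 between the hours. The tissue carried the markers of liver: the 15 hepatocyte markers had a mean log2 level of 14.02 to 14.34 at -22 hours and of 13.77 to 13.91 at 6 hours. The array of cow 7 at -22 hours stood apart technically, with the lowest median and with hybridization spike-in controls at a log2 value of 13.13 against at most 11.35 on the other arrays of that hour.

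Cows 1 and 3 stood apart from the other cows before infusion. The 20 positive acute phase proteins had a mean log2 level of 12.56 in cow 1 at -22 hours, above 12.20 in the next cow and 11.05 in the lowest. SOCS3, a feedback inhibitor of cytokine receptors, was at 6.12 in cow 1 and between 2.49 and 3.35 in the other 7 cows. Of 55 genes that lay at least 2-fold higher in cow 1 than in any other cow before infusion, 44 were called higher at 6 hours, beside 26.0% of all genes. The same count was 16 of 49 genes for cow 3 and 2 of 41 for cow 7. Cow 3 differed in another group: its 29 interferon-stimulated genes had a mean of 8.74 at -22 hours, against 6.57 to 7.15 in the other cows. ISG15, a ubiquitin-like protein induced by interferon, was at 13.44 in cow 3 and at no more than 8.68 in any other cow at that hour. The changes that rest most on these arrays are also given without them.

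At an adjusted p below 0.05 (limma, Benjamini-Hochberg over all 24128 probe sets), 5618 probe sets (23.3%) lay higher at 6 hours than at -22 hours and 5306 (22.0%) lay lower. Each gene was read through its brightest probe set. Of 9155 genes, 2379 (26.0%) were higher and 2683 (29.3%) lower, and the median change over all genes was 0.02 on the log2 scale. A change of at least 2-fold, which is 1 on the log2 scale, was found for 1136 higher genes (12.4%) and 1234 lower genes (13.5%). Counted over all genes, called or not, the 4 arrays at 6 hours all lay above the 8 at -22 hours for 1746 (19.1%). They all lay below them for 1953 (21.3%). Of the 2379 genes called higher 2189 rose in each of the 4 cows against the cow's own array at -22 hours. Of the 2683 called lower 2452 fell in each. The calls rest on these same arrays, so the selection partly fixes this agreement and it is not separate support.

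Large changes leaned upward. At least 8-fold changes (3 on the log2 scale) were found for 188 higher and 81 lower genes, and changes of at least 5 on that scale for 31 higher and 12 lower genes. Part of the response was a switch between the dim and the bright end of the arrays. A log2 value below 5 on all 8 arrays at -22 hours and of at least 5 on all 4 arrays at 6 hours was found for 83 genes, and the opposite for 110. Small calls were also frequent among dim genes: 439 of the genes called higher had means below 5 at both hours, with a median change of 0.12, and 65 of these changed at least 2-fold.

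**Figure D1:**
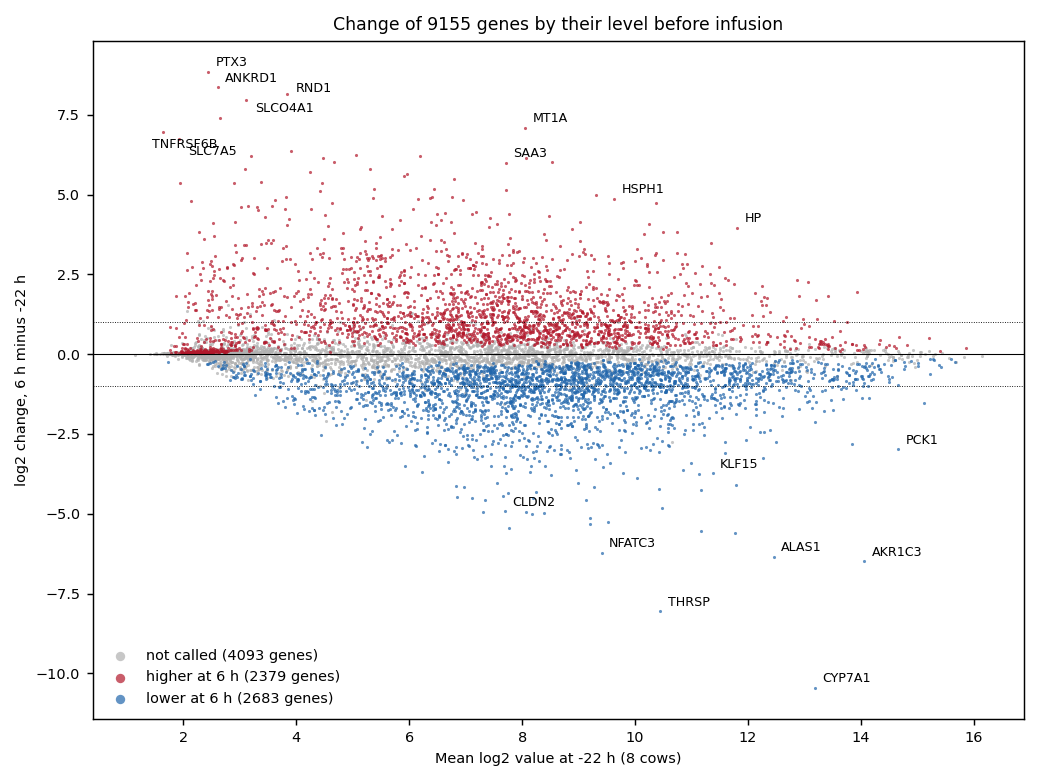
Change of each gene at 6 hours against -22 hours (log2, vertical axis) by its mean log2 value at -22 hours over 8 cows (horizontal axis), with called genes in colour and dotted lines at 2-fold. The largest rises start from low values (PTX3, ANKRD1, RND1), the largest falls from middle and high ones (CYP7A1, THRSP, AKR1C3), and a dense group of dim genes lies just above 0.

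The largest rise was that of PTX3, a long pentraxin that binds microbes and complement. Its log2 values at 6 hours were 10.06, 11.54, 11.70 and 11.88 in cows 1, 3, 7 and 8, against values of 2.16 to 2.98 (median 2.27) at -22 hours. All 4 arrays lay far above the 8 before infusion, with a change of 8.86 (SE 0.58, adjusted p = 5.17e-14). ANKRD1, a nuclear ankyrin repeat protein induced by stress, was at 12.03, 11.28, 10.35 and 10.25 in these cows against 2.34 to 3.12 (median 2.56). It changed by 8.37 (SE 0.91, adjusted p = 3.09e-09), and cow 1 was the highest of the 4. RND1, a protein that loosens the actin cytoskeleton, reached 11.94, 12.11, 12.05 and 11.87 from a median of 3.96 (lowest 2.69, highest 4.84), and the 4 cows differed little at 6 hours. Its change was 8.16 (SE 0.37, adjusted p = 1.35e-17). SLCO4A1, an organic anion transporter, was at 11.24, 10.99, 10.88 and 11.22 against 2.22 to 5.75 (median 2.90), a change of 7.98 (SE 0.40, adjusted p = 1.11e-16) that became 8.36 without the array of cow 1 at -22 hours. That array held the highest of the 8 values.

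Further among the 12 largest rises were genes that were not above the low end of the scale in any cow before infusion. TNFRSF6B, a decoy receptor that binds Fas ligand, was at 8.47, 8.44, 8.29 and 9.21 in cows 1, 3, 7 and 8 against 1.61 to 1.67 (median 1.63), and rose by 6.97 (SE 0.11, adjusted p = 1.22e-29). Its mean at 3 hours was still 1.64, so its rise fell between the biopsies at 3 and 6 hours. SLC7A5, the light chain of a transporter of large neutral amino acids, behaved alike in time, with a mean of 1.92 at 3 hours. It was at 8.40, 9.01, 8.94 and 8.37 at 6 hours against 1.88 to 1.97 (median 1.91), a change of 6.75 (SE 0.29, adjusted p = 4.88e-18). BCAT2, the mitochondrial aminotransferase of branched-chain amino acids, had a mean of 3.32 at 3 hours too. Its 6 hour values were 10.51, 8.82, 9.16 and 9.09, from a median of 3.31 (lowest 2.84, highest 3.44) before infusion, and it rose by 6.20 (SE 0.31, adjusted p = 1.10e-16). The remaining rises were those of OLR1, a scavenger receptor for oxidized lipoprotein (7.40, SE 0.81, and 7.43 without the array of cow 3 at -22 hours), GNMT, which methylates glycine (6.36, SE 0.36, and 6.44 without that array), CREM, a transcription factor of cyclic AMP signaling (6.25, SE 0.37, and 6.46 without the array of cow 1 at -22 hours), TNC, a matrix protein of injured tissue (6.21, SE 0.34), and MT1A, described below with the metallothioneins.

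**Figure D2:**
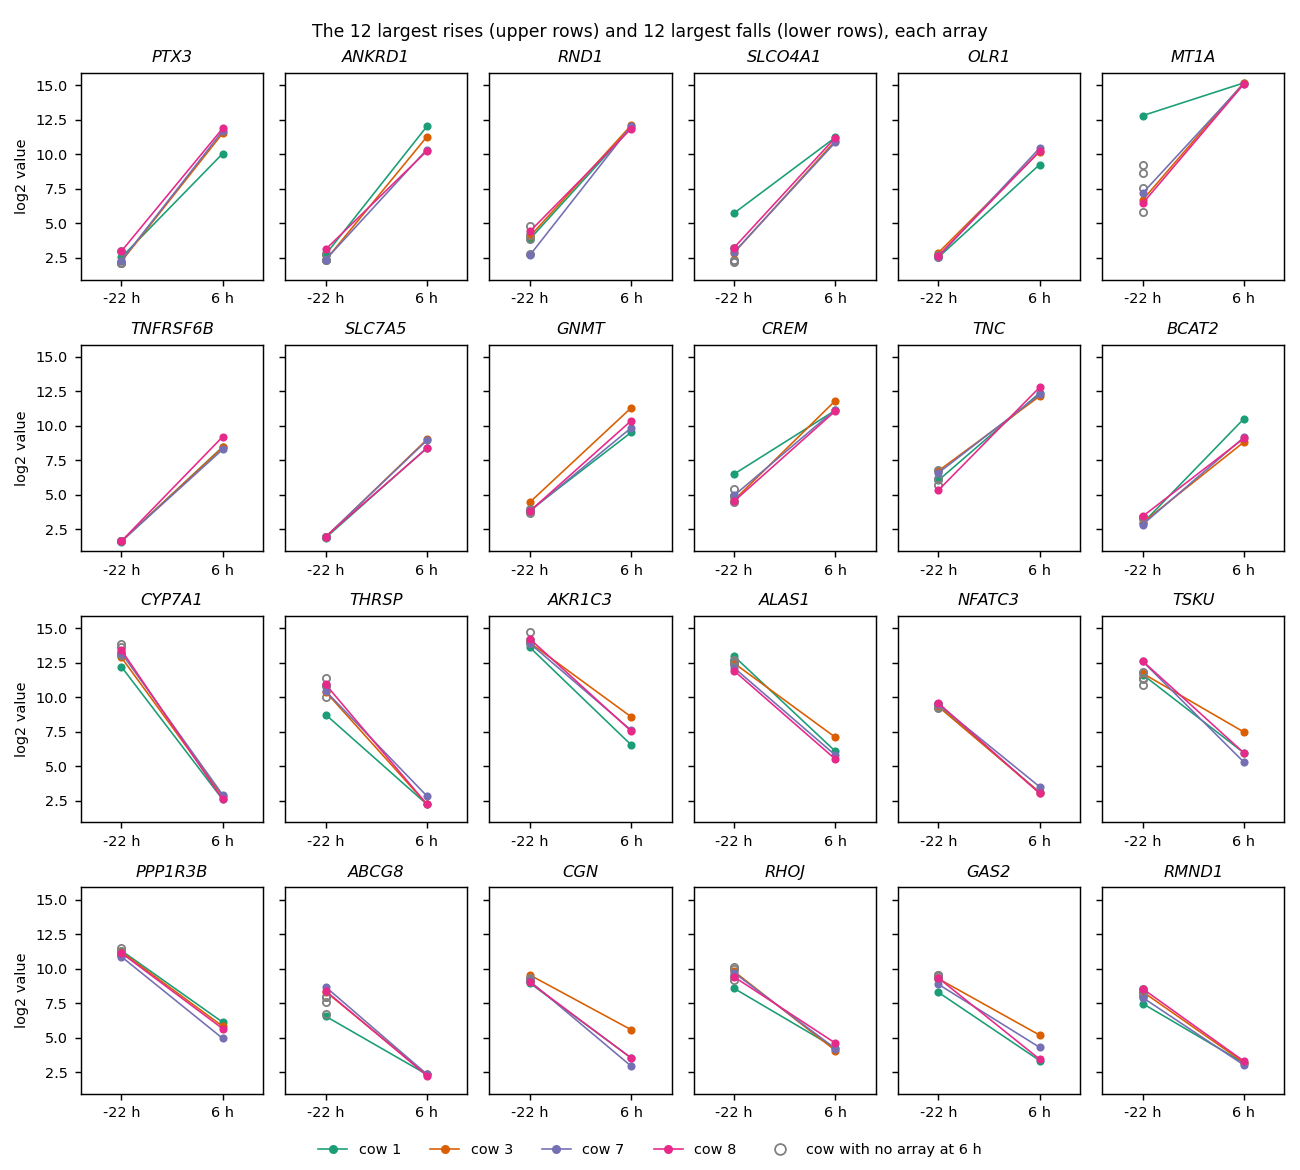
Log2 value on each array at -22 and 6 hours for the 12 genes with the largest rise and the 12 with the largest fall that had the same direction in all 4 cows; lines join the 2 arrays of a cow. No gene's 2 groups overlap, and cow 1 is the highest before infusion for SLCO4A1, MT1A and CREM.

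The largest fall was that of CYP7A1, which catalyses the first and rate-limiting step from cholesterol to bile acids. Its log2 values were 2.60, 2.83, 2.93 and 2.60 in cows 1, 3, 7 and 8 at 6 hours and lay between 12.22 and 13.85 (median 13.21) before infusion. The groups were separated by more than 9 on this scale, and the change was -10.45 (SE 0.57, adjusted p = 8.91e-16). At 6 hours its values lay among the lowest of the arrays, where a further fall cannot be seen. THRSP, which promotes fatty acid synthesis, was at 2.24, 2.24, 2.84 and 2.25 against 8.74 to 11.39 (median 10.62). It also ended at the low end of the scale, with a change of -8.05 (SE 0.63, adjusted p = 2.29e-12). AKR1C3, an aldo-keto reductase of steroids and prostaglandins, was at 6.55, 8.58, 7.61 and 7.54 against 13.61 to 14.70 (median 14.00), and cow 3 kept the highest value. It fell by 6.49 on the log2 scale (SE 0.34, adjusted p = 3.27e-16).

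ALAS1, which starts heme synthesis in the liver, was at 6.08, 7.09, 5.80 and 5.51 in cows 1, 3, 7 and 8 against 11.91 to 12.97 (median 12.47). Its change was -6.34 (SE 0.37, adjusted p = 4.11e-15), and it was already higher again at 9 hours, with a mean of 7.83 against 6.12 at 6 hours. NFATC3, a transcription factor controlled by calcineurin, was at 3.10, 3.09, 3.51 and 3.03 against 9.24 to 9.58 (median 9.42), the tightest of these groups before infusion, and changed by -6.22 (SE 0.20, adjusted p = 4.98e-21). PPP1R3B, the subunit that directs a protein phosphatase to liver glycogen, was at 6.12, 5.82, 4.94 and 5.65 against 10.87 to 11.50 (median 11.18), with a change of -5.54 (SE 0.29, adjusted p = 2.93e-16). The other falls in the first 12 were those of TSKU, a secreted leucine-rich protein made by the liver (-5.59, SE 0.50), ABCG8, a subunit of the sterol exporter of bile (-5.45, SE 0.44), CGN, a protein of tight junctions (-5.31, SE 0.33), RHOJ, a gene of endothelium (-5.24, SE 0.36), GAS2, which links actin and microtubules (-5.13, SE 0.24), and RMND1, needed for mitochondrial translation (-5.02, SE 0.32). Cow 3 was the highest of the 4 at 6 hours for TSKU, CGN and GAS2.

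Of 20 measured positive acute phase genes, most of them for proteins that the liver secretes in larger amounts during inflammation, 16 rose, 11 of them at least 2-fold, and 1 fell. The median of the list was 1.45 on the log2 scale, beside 0.02 over all genes. Without the array of cow 1 at -22 hours the rises were also 16, and without that of cow 3 they were 15. The risers include genes whose proteins stay in or on the cell: SOD2 in mitochondria, MT2A, which binds metal ions, and CD14, a coreceptor of LPS that is also a macrophage marker. SAA3, a serum amyloid A, was at 13.69, 13.09, 13.02 and 15.04 in cows 1, 3, 7 and 8 against 5.50 to 8.73 (median 8.08), and changed by 6.00 (SE 0.54, adjusted p = 5.38e-11). HP, haptoglobin, which binds free hemoglobin, was at 15.84, 15.71, 15.78 and 15.77 at 6 hours, nearly the same in all 4 cows and near the upper end of the scale. Before infusion it ranged over cows from 7.33 to 15.14 (median 12.24), so its change within a cow was 0.69 in cow 1 and 8.34 in cow 7. Its mean change of 3.97 (SE 0.94, adjusted p = 7.64e-04) became 4.44 without the array of cow 1 at -22 hours, and its adjusted p became 0.0728 in the paired fit, which set each of the 4 cows against its own earlier array alone, and 0.0692 when only the 12 arrays were fitted. SOD2, a superoxide dismutase, rose by 2.13 (SE 0.17) with values of 14.50, 14.33, 14.28 and 14.40 against 11.84 to 12.60 (median 12.21). ORM1, α1-acid glycoprotein, did not pass the test at -0.11, and its groups overlapped, with 15.56, 15.71, 15.15 and 15.37 in cows 1, 3, 7 and 8 against 14.85 to 15.95 (median 15.62) before.

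Carrier proteins and negative acute phase proteins moved little and one way. Of 22 measured, 14 fell, only SERPINA6 by at least 2-fold, and none rose, with a median of -0.38. SERPINA6, the carrier of cortisol, was at 8.61, 9.71, 9.92 and 10.10 in cows 1, 3, 7 and 8 against 10.28 to 11.22 (median 10.85), and fell by 1.20 on the log2 scale (SE 0.33, adjusted p = 0.00343). APOB, the scaffold of very low density lipoprotein, changed by -0.99 (SE 0.13), AFM, a carrier of vitamin E, by -0.97 (SE 0.18), and TFR2, a sensor of iron-loaded transferrin, by -0.87 (SE 0.14). Most complement and clotting genes did not pass the test. The shares that fell (25% and 22.7%) were no higher than that over all genes (29.3%). Among 28 complement genes 2 rose and 7 fell, and the falls became 4 without the array of cow 4 at -22 hours, 4 without that of cow 3 at 6 hours, 3 in the paired fit of the 4 cows and 12 with array weights, which give noisier arrays less influence. The 2 that rose protect cells from complement: CD55, from a median of 2.78 (lowest 2.14, highest 3.39) to 4.32, 5.36, 4.58 and 5.43, and CD46, with a change of 1.54 (SE 0.11). MBL2, a lectin that starts the complement cascade, changed by -0.84 (SE 0.18) and C1QA, a chain of C1q, by -0.76 (SE 0.21). Among 22 clotting and fibrinolysis genes 4 rose and 5 fell, among them F10, coagulation factor X, at -0.82 (SE 0.11), PLAU, the urokinase, at -1.57 (SE 0.44), and PLAT, the tissue plasminogen activator, at 1.18 (SE 0.33). TFPI2, a protease inhibitor, changed by 2.01 (SE 0.57), with cow 1 the highest at 12.80, and its adjusted p became 0.0566 without that array.

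Cytokines and their receptors moved in both directions. Of 38 measured cytokines and receptors 16 rose (42.1%), 13 of them at least 2-fold, and 6 fell (15.8%). The shares over all genes were 26.0% and 29.3%. TNF, the first cytokine of the response to LPS, was at 2.34, 2.35, 2.37 and 2.39 in cows 1, 3, 7 and 8 against 2.26 to 2.34 (median 2.31), a difference of 0.06 that did not pass the test (adjusted p = 0.41). IL6, at 2.64, 2.66, 2.70 and 2.70 against 2.44 to 2.70 (median 2.57), also lay at the low end of the scale with a difference of 0.10 (adjusted p = 0.835). Such values cannot show a small change. IL1B, interleukin-1β, was above its earlier range in all 4 cows at 5.94, 7.21, 6.88 and 6.17 against 3.58 to 4.52 (median 4.24), and rose by 2.37 (SE 0.26, adjusted p = 4.48e-09). It was then below its mean of 8.83 at 3 hours. IL10, which limits inflammation, was at 3.04, 4.42, 4.93 and 5.36 against 2.53 to 2.67 (median 2.58), with a change of 1.85 (SE 0.26, adjusted p = 3.67e-07) and with cow 1 nearest to the values before infusion. IL1RN, the antagonist of the interleukin-1 receptor, rose by 4.44 (SE 0.36, adjusted p = 4.74e-12) to 10.41, 11.75, 11.63 and 10.45. TNFRSF12A, the receptor of the cytokine TWEAK, rose by 5.70 (SE 0.47) and IFNAR1, a chain of the type I interferon receptor, by 3.57 (SE 0.45). The adjusted p of IFNAR1 was 0.0501 in the paired fit of the 4 cows. IL20RA, a receptor chain of interleukin-20 cytokines, was at 4.98, 2.33, 3.95 and 4.91 against 2.4 to 7.85 (median 6.69), with the lowest value before infusion in cow 3. Its change of -2.28 (SE 0.85, adjusted p = 0.029) became -2.83 without that array, and its adjusted p was 0.0681 in the paired fit, 0.135 without the array of cow 3 at 6 hours, 0.0635 without that of cow 7 at 6 hours and 0.0532 without that of cow 2 at -22 hours.

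Of 24 chemokines and their receptors 12 rose, 10 of them at least 2-fold, and 1 fell. The falls were 2 without the array of cow 3 at 6 hours, 2 in the paired fit, 2 with array weights and 3 with the cow as a fixed replicate block. The fall called here was that of CXCL12, a ligand of CXCR4 (named after its value was seen). CCL2, which attracts monocytes, was at 10.33, 11.35, 10.97 and 9.86 in cows 1, 3, 7 and 8 against 3.83 to 5.32 (median 4.31), a change of 6.16 (SE 0.72, adjusted p = 1.25e-08). CCL20, a ligand of the receptor CCR6, was at 5.79, 8.89, 7.75 and 6.81 against 1.82 to 2.33 (median 1.90), a change of 5.37 (SE 0.37, adjusted p = 1.31e-13), and cow 3 had the highest value of both genes. At 9 hours the mean of CCL20 had returned to 1.98. CXCL8, which attracts neutrophils, changed by 3.48 (SE 0.74), and CXCL11, a ligand of CXCR3, by 3.43 (SE 0.44). Of 21 adhesion molecules 6 rose (28.6%) and 4 fell (19%), beside 26.0% and 29.3% over all genes, so the share of rises was near that over all genes. The risers included SELP, P-selectin (3.12, SE 0.33), CD44, a receptor of hyaluronan (3.10, SE 0.34), VCAM1 (2.87, SE 0.37) and ICAM1 (2.33, SE 0.28), ligands of leukocyte integrins.

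Signaling genes downstream of LPS and cytokines rose more often than they fell. Of 29 measured genes of Toll-like receptors and NF-κB 21 rose, 16 of them at least 2-fold, and 2 fell, with a median of 1.35. NFKB2, an NF-κB subunit, was at 7.89, 8.99, 8.12 and 7.92 in cows 1, 3, 7 and 8 against 2.43 to 4.82 (median 3.67) and rose by 4.66 (SE 0.42, adjusted p = 5.03e-11). BCL3, which binds NF-κB in the nucleus, was at 8.95, 9.10, 8.91 and 8.59 against 4.11 to 5.83 (median 4.23), a rise of 4.37 (SE 0.26, adjusted p = 6.61e-15). The inhibitors rose with the subunits: NFKBIA by 3.2 (SE 0.29) and NFKBIB by 3.32 (SE 0.22). Of 16 genes of JAK-STAT signaling 10 rose and 2 fell. SOCS3 was at 8.79, 8.93, 8.82 and 8.98 against 2.49 to 6.12 (median 2.54) and changed by 5.79 (SE 0.49, adjusted p = 1.27e-11), or by 6.23 without the array of cow 1 at -22 hours. STAT3, which carries the interleukin-6 signal, was at 13.62, 13.44, 13.49 and 13.61 against 9.98 to 12.23 (median 10.70), a rise of 2.69 (SE 0.23, adjusted p = 2.18e-11). CISH, another inhibitor of cytokine receptors, rose by 2.79 (SE 0.27) and PTPN1, a tyrosine phosphatase, by 1.99 (SE 0.16). Of 19 MAP kinases and their phosphatases 13 rose and 3 fell, among the former GADD45B, a stress activator of p38 and JNK kinases (4.88, SE 0.51), and MAPK14, the p38α kinase (2.65, SE 0.18).

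Most interferon-stimulated genes did not pass the test. Of 29 measured, 10 rose (34.5%), 2 fell (6.9%) and 17 did not pass the test. Over all genes 26.0% rose, 29.3% fell and 55.3% passed. For 5 of the 29 genes all arrays at 6 hours lay above all at -22 hours, which held for 19.1% of all genes. The rises were also 10 without the array of cow 3 at -22 hours, and 9 without that of cow 1. ISG15 was at 9.96, 12.40, 10.54 and 9.99 in cows 1, 3, 7 and 8 against 6.88 to 13.44 (median 7.78), so the groups overlapped, and cow 3 fell by 1.04 on the log2 scale while the other 3 cows rose by 1.28 to 3.11. Its change of 2.30 (SE 0.94, adjusted p = 0.0447) became 3.02 without the array of cow 3 at -22 hours, and its adjusted p lay between 0.0502 and 0.166 when any other single array was left out. In the paired fit of the 4 cows it was 0.264. RTP4, another gene induced by interferon, had the same pattern, with -0.30 in cow 3 and 2.95 to 3.96 in the others, a mean change of 2.77 (SE 0.72) and one of 3.34 without the array of cow 3 at -22 hours. Its adjusted p was 0.105 in the paired fit. TAP1, the peptide transporter of antigen presentation (2.84, SE 0.45), and IFI16, a sensor of DNA (2.69, SE 0.40), rose in all 4 cows without overlap. GBP5, a guanylate-binding protein, also rose without overlap (2.57, SE 0.56). XAF1, a partner of the apoptosis inhibitor XIAP (2.44, SE 0.57), and PSMB9, a subunit of the immunoproteasome (1.94, SE 0.49), rose in all 4 cows but overlapped with cow 3 before infusion, and changed by 2.85 and 2.20 without that array.

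Transcription factors of the immediate early and stress type rose: 16 of 23 measured, 15 of them at least 2-fold, and none fell. MYC was at 10.76, 11.56, 11.31 and 10.75 in cows 1, 3, 7 and 8 against 4.42 to 6.03 (median 5.34), a change of 5.79 (SE 0.41, adjusted p = 2.10e-13). EGR1, a zinc finger factor induced within minutes by many stimuli, was at 9.51, 9.99, 10.29 and 9.52 against 2.80 to 6.41 (median 4.55), a change of 5.37 (SE 0.85, adjusted p = 2.83e-06). FOS, a subunit of AP-1, rose by 4.83 (SE 0.59) and MAFF, a small Maf protein, by 4.62 (SE 0.51). A list of liver transcription factors, coactivators and nuclear receptors went the other way more often than not. Of 29 measured, 15 fell (51.7%), 12 of them at least 2-fold, and 8 rose (27.6%), beside 29.3% and 26.0% over all genes. HLF, a factor of the albumin promoter that follows the day, was at 7.07, 8.11, 7.79 and 7.38 against 10.51 to 11.32 (median 11.02) and changed by -3.40 (SE 0.22, adjusted p = 5.34e-14). NR3C1, the glucocorticoid receptor, was at 7.07, 7.35, 7.60 and 7.65 against 8.59 to 10.21 (median 9.61), a change of -2.17 (SE 0.25, adjusted p = 7.94e-09). PPARGC1A, a coactivator of gluconeogenesis and mitochondrial genes, rose by 2.97 (SE 0.36), CEBPG, a bZIP factor, by 2.67 (SE 0.15), and PPARD, a receptor of fatty acids, by 2.67 (SE 0.23).

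Of 28 genes of hormone receptors, hormone carriers and other parts of hormone action 14 fell, 10 of them at least 2-fold, and 5 rose. The falls became 9 in the paired fit of the 4 cows. KLB, the coreceptor of the hormones FGF19 and FGF21, was at 5.25, 6.10, 5.79 and 5.51 in cows 1, 3, 7 and 8 against 9.62 to 11.31 (median 10.51), a change of -4.82 (SE 0.37, adjusted p = 1.55e-12). FGFR2, a receptor of fibroblast growth factors, was at 6.62, 5.96, 5.81 and 6.22 against 9.80 to 10.28 (median 9.98) and changed by -3.88 (SE 0.20, adjusted p = 1.43e-16). FKBP5, a partner of the glucocorticoid receptor that glucocorticoids induce, rose from a median of 2.47 (lowest 2.38, highest 2.62) to 4.29, 5.93, 5.84 and 5.54, a change of 2.91 (SE 0.30, adjusted p = 1.19e-09). Of 10 clock genes 4 rose (40%) and 2 fell (20%), beside 26.0% and 29.3% over all genes. NFIL3, a repressor of the clock, rose by 2.98 (SE 0.27), BHLHE40, another, by 2.50 (SE 0.37), and PER2, a core clock protein, changed by -1.95 (SE 0.33).

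Genes for making ribosomes were the list with the highest share of rises. Of 64 measured genes of ribosome biogenesis 57 rose, 48 of them at least 2-fold, and 3 fell, with a median of 1.48. Among the falls is HEATR1, whose probe sets disagree, and averaging the probe sets of each gene left 1 fall. DDX21, a nucleolar helicase, was at 8.76, 9.58, 9.21 and 9.03 in cows 1, 3, 7 and 8 against 4.76 to 5.83 (median 5.08), a change of 4.00 (SE 0.22, adjusted p = 8.54e-16). DDX18, another, was at 9.26, 9.87, 9.85 and 9.48 against 4.56 to 6.80 (median 5.58) and changed by 3.92 (SE 0.28, adjusted p = 3.96e-13). NOLC1, a nucleolar phosphoprotein, rose by 3.47 (SE 0.21) and GNL3, nucleostemin, by 3.23 (SE 0.24). The mean level of the 64 genes was 7.16 ± 0.16 (SD, n = 8 cows) at -22 hours, 7.30 ± 0.09 (n = 4) at 3 hours and 8.67 ± 0.11 (n = 4) at 6 hours. Nearly all of the rise up to 6 hours thus came after the biopsy at 3 hours. At 9 hours the mean was higher still, at 9.13 ± 0.10 (n = 8). The proteins of the ribosome itself hardly moved: of 62 measured cytosolic ribosomal proteins 27 rose and 1 fell, none at least 2-fold, with a median of 0.14. RPL37, at 0.88 (SE 0.18), RPL13, at 0.40 (SE 0.09), and RPS18, at 0.38 (SE 0.06), were the largest rises, and the fall was that of RPS28 (-0.43, SE 0.11). The 27 became 14 in the paired fit of the 4 cows and 16 without the array of cow 8 at 6 hours. In that paired fit the adjusted p was 0.0598 for RPL13, 0.0806 for RPL37 and 0.168 for RPS28.

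Most genes that charge tRNAs or drive translation rose. Of 30 aminoacyl-tRNA synthetases and their partners, which charge tRNAs with amino acids, 19 rose, 15 of them at least 2-fold, and 5 fell. Among the falls was WARS1, 3 of whose 4 probe sets rose. TARS1, for threonine, was at 14.17, 14.19, 14.27 and 14.21 in cows 1, 3, 7 and 8 against 11.16 to 12.30 (median 11.43), a change of 2.73 (SE 0.16, adjusted p = 7.10e-15). GARS1, for glycine, rose by 2.89 (SE 0.25) and CARS1, for cysteine, by 2.75 (SE 0.23). LARS2, the mitochondrial enzyme for leucine, rose by 3.69 (SE 0.24) from the low end of the scale. Of 41 translation factors 25 rose and 2 fell. EIF4A1, the helicase that unwinds mRNA, rose by 2.60 (SE 0.15, adjusted p = 1.85e-15) and GSPT1, a release factor, by 2.45 (SE 0.09, adjusted p = 4.06e-19), while EEF2K, which inhibits elongation, changed by -2.71 (SE 0.18, adjusted p = 3.55e-14). Of 65 mitochondrial ribosomal proteins 19 rose and 21 fell, shares (29.2% and 32.3%) near those over all genes (26.0% and 29.3%). Examples were MRPL15 (1.81, SE 0.19) and MRPL49 (-1.56, SE 0.14), and the rises became 9 in the paired fit of the 4 cows.

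Genes of protein folding in the endoplasmic reticulum rose in number next to those of ribosome biogenesis. Of 42 measured, 35 rose, 21 of them at least 2-fold, and 2 fell, with a median of 1.00. HYOU1, a large chaperone of this compartment, was at 12.39, 11.94, 12.44 and 12.32 in cows 1, 3, 7 and 8 against 5.87 to 9.15 (median 6.52). Its change was 5.48 (SE 0.51, adjusted p = 1.22e-10), or 5.82 without the array of cow 1 at -22 hours. MANF, a secreted factor of the unfolded protein response, was at 14.55, 14.41, 14.68 and 14.69 against 10.06 to 12.69 (median 10.53) and changed by 3.84 (SE 0.41, adjusted p = 2.60e-09). HERPUD1, which acts in the degradation of misfolded proteins, rose by 3.18 (SE 0.44, adjusted p = 2.61e-07) to 13.84, 13.82, 14.23 and 13.81, and EIF2AK3, the stress kinase PERK, by 3.18 (SE 0.34, adjusted p = 1.83e-09). Of 39 proteasome genes 16 rose (41%) and 9 fell (23.1%), beside 26.0% and 29.3% over all genes. The rises became 9 in the paired fit. PSMD10, an assembly chaperone, rose by 2.17 (SE 0.30), PSMG2, another, by 1.32 (SE 0.12), and PSMD5, which acts in assembly too, changed by -1.69 (SE 0.17).

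**Figure D3:**
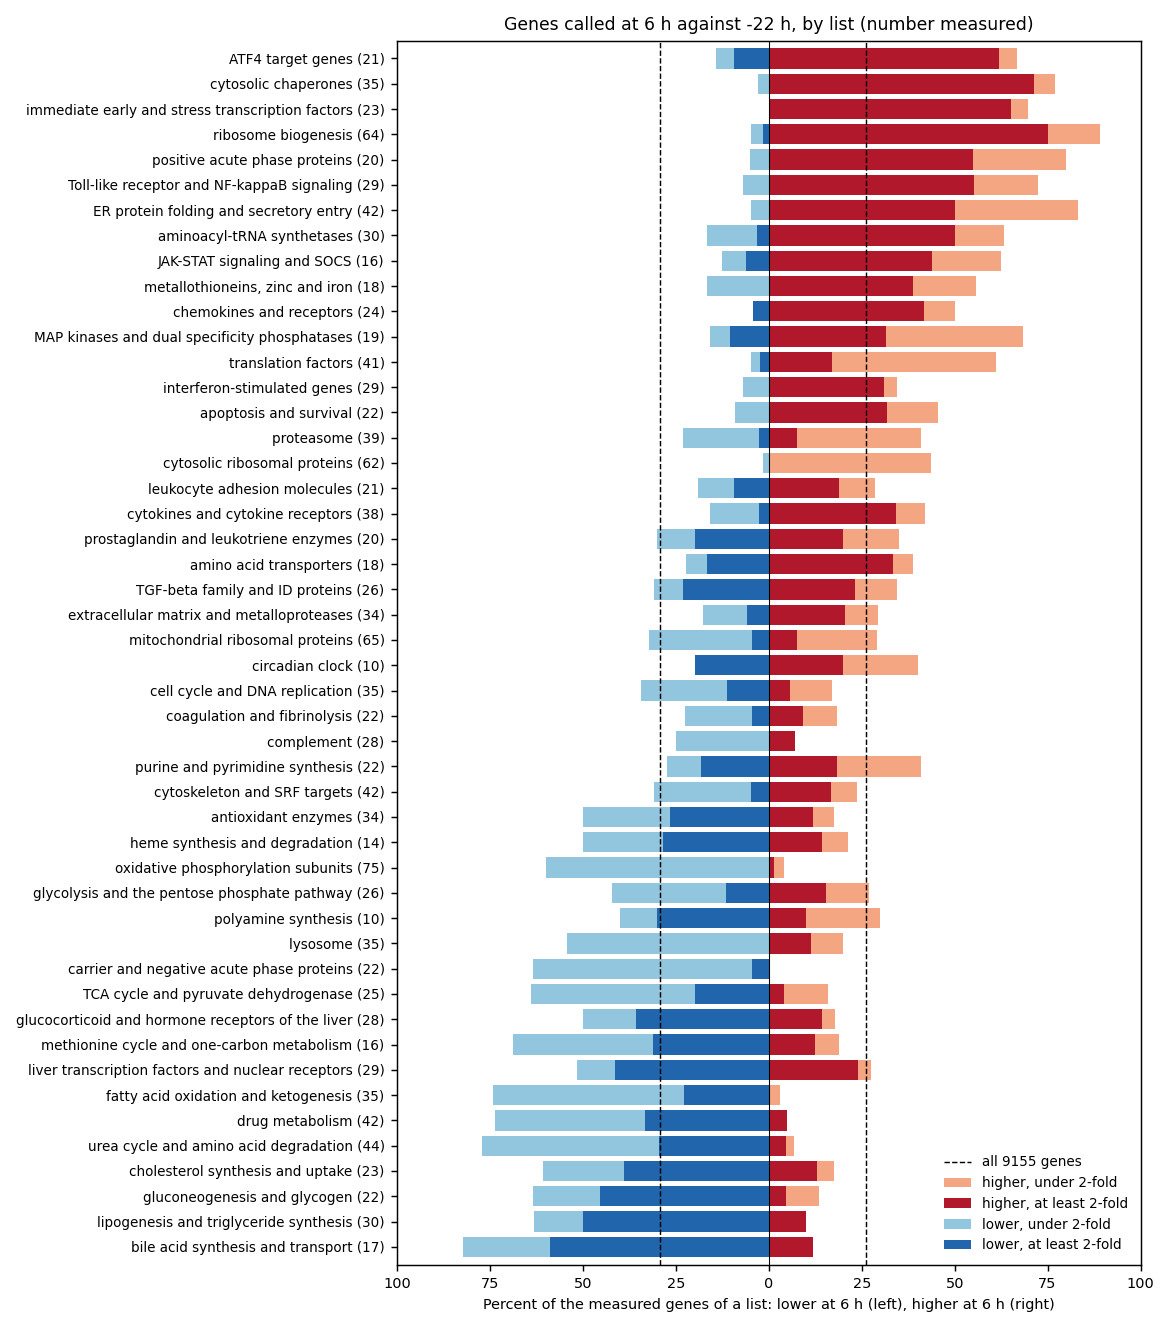
Share of the measured genes of each of 48 process lists that was called lower (left) or higher (right) at 6 hours against -22 hours, with changes of at least 2-fold in the dark shade; dashed lines mark the shares over all 9155 genes (26.0% higher, 29.3% lower). Lists are ordered by their median change, and lists of protein synthesis, folding and inflammatory signaling lie at the top and lists of lipid, bile acid and sugar metabolism at the bottom.

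Cytosolic chaperones formed a group that stood highest at 6 hours. Of 35 measured, 27 rose, 25 of them at least 2-fold, and 1 fell, with a median of 1.58. HSPH1, which helps HSP70 to release its client, was at 14.29, 15.01, 14.62 and 14.12 in cows 1, 3, 7 and 8 against 8.77 to 10.13 (median 9.72), and changed by 4.88 (SE 0.62, adjusted p = 7.22e-08). DNAJB1, a cochaperone of HSP70, was at 12.56, 13.54, 12.97 and 12.20 against 8.05 to 8.95 (median 8.51), a change of 4.33 (SE 0.61, adjusted p = 4.01e-07). BAG3, which links HSP70 to autophagy, rose by 4.07 (SE 0.50, adjusted p = 3.24e-08) and CHORDC1, a partner of HSP90, by 4.21 (SE 0.41, adjusted p = 2.80e-10). The mean level of the 35 genes was 9.82 ± 0.17 (SD, n = 8 cows) at -22 hours, 10.33 ± 0.12 (n = 4) at 3 hours, 11.47 ± 0.19 (n = 4) at 6 hours and 10.85 ± 0.23 (n = 8) at 9 hours.

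A gene was counted as highest at 6 hours when it was called higher than at -22 and 3 hours and called lower at 9 hours than at 6 hours, and as lowest when the reverse held. Of 9155 genes 288 were highest (3.15%) and 548 lowest (5.99%) by this rule. Cytosolic chaperones had 10 of 35 genes with their highest level at 6 hours and 1 with its lowest. The list of ATF4, the transcription factor of the integrated stress response, had 8 of 21 genes highest and none lowest. It holds targets of ATF4 and also EIF2AK3, a kinase of that response, so it is not a measure of ATF4 activity. Of its 21 genes 14 rose, 13 of them at least 2-fold, and 3 fell, with a median of 1.83. TRIB1, a pseudokinase, was at 11.65, 12.80, 12.37 and 11.77 against 7.13 to 8.18 (median 7.75), a change of 4.38 (SE 0.32, adjusted p = 4.06e-13). DDIT3, the stress factor CHOP, was at 9.91, 11.33, 10.96 and 10.12 against 6.74 to 8.32 (median 7.19), a change of 3.29 (SE 0.43, adjusted p = 1.01e-07). PPP1R15A, which reverses the block of translation, rose by 3.34 (SE 0.57). Mitochondrial ribosomal proteins had 8 of 65 genes with their lowest level at 6 hours.

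The sharpest peaks at 6 hours were chosen by the smaller of the difference from 3 hours and that from 9 hours. DNAJA4, a cochaperone of the HSP40 family, was at 9.92, 12.48, 10.60 and 9.19 in cows 1, 3, 7 and 8 against 4.97 to 6.05 (median 5.38) at -22 hours, and its means were 6.81 at 3 hours, 10.55 at 6 hours and 7.75 at 9 hours. Cow 3 stood highest. BTG3, which restrains the cell cycle, had means of 9.09, 11.48 and 8.47 at these hours. Those of PTGES, a prostaglandin E synthase, were 4.29, 6.87 and 4.57. The other peaks in the first 8 were those of HSPH1, DNAJB1, DEDD2, a nuclear death domain protein (3.15, SE 0.26 at 6 against -22 hours), RHOF, which acts in filopodia (3.04, SE 0.36), and SLC1A4, a transporter of neutral amino acids. SLC1A4 was at 2.99, 6.69, 5.87 and 4.47 at 6 hours against 2.51 to 2.59 (median 2.52). Its values spread widely over the cows, and its adjusted p was 0.0746 in the paired fit of the 4 cows.

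The sharpest trough was that of CLDN2. This claudin, which forms pores in tight junctions, was at 3.34, 2.68, 2.83 and 2.24 at 6 hours in cows 1, 3, 7 and 8 against 7.18 to 8.21 (median 7.68) at -22 hours, a change of -4.93 (SE 0.39, adjusted p = 3.56e-12). Its mean was 8.01 at 3 hours and 7.16 at 9 hours, so the loss and the return both fell within the biopsies next to 6 hours. CLDN5, the claudin of endothelium, was at 2.90, 2.26, 2.54 and 3.51 against 5.87 to 7.68 (median 6.97), with means of 6.18, 2.80 and 5.86 at 3, 6 and 9 hours. KLF15, a transcription factor of gluconeogenesis and amino acid breakdown, was at 7.63, 7.43, 7.59 and 7.96 against 11.10 to 11.62 (median 11.39), with means of 11.18, 7.65 and 10.41. MICU3, a regulator of mitochondrial calcium uptake, had means of 8.73, 4.96 and 7.66. The other troughs in the first 8 were those of TMEM101, a membrane protein (-4.22, SE 0.28 at 6 against -22 hours), PTH1R, the receptor of parathyroid hormone (-3.12, SE 0.27), MBP, myelin basic protein (-2.92, SE 0.27), and ADAMTS1, a secreted metalloprotease (-2.19, SE 0.45).

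**Figure D4:**
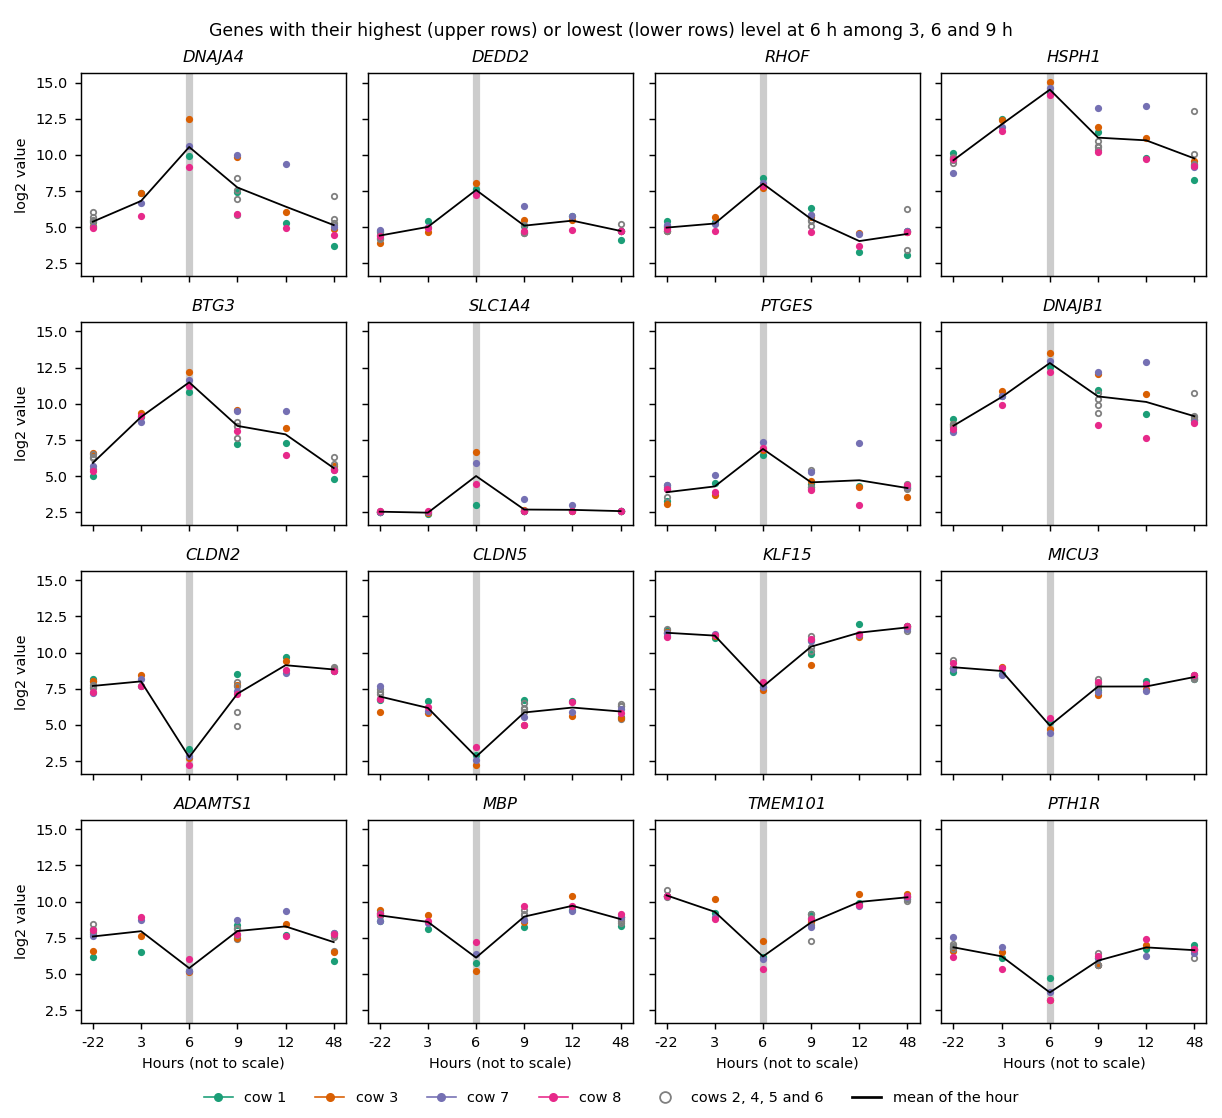
Log2 values over the 6 hours of biopsy for the 8 sharpest peaks and the 8 sharpest troughs at 6 hours; points are cows, lines join the hourly means, and the grey bar marks 6 hours. Cows 3 and 7 remain higher than the others at 9 hours for DNAJA4 and DNAJB1, and CLDN2 falls from a mean of 8.01 at 3 hours to 2.77 at 6 hours in all 4 cows.

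Bile acid genes had the lowest median of the 48 process lists, -1.29 on the log2 scale. Of 17 measured, 14 fell, 10 of them at least 2-fold, and 2 rose. Besides CYP7A1 and ABCG8 these included HSD3B7, the second enzyme of the pathway, at 9.16, 9.09, 8.78 and 8.30 in cows 1, 3, 7 and 8 against 11.41 to 11.76 (median 11.60), a change of -2.76 (SE 0.20), and ABCG2, an exporter of sterols and drugs (-1.29, SE 0.16). Of 30 genes of fatty acid and triglyceride synthesis 19 fell, 15 of them at least 2-fold, and 3 rose, with a median of -1.02. GPAM, which starts triglyceride synthesis, was at 6.73, 6.70, 7.46 and 6.69 against 10.86 to 11.44 (median 11.16) and changed by -4.27 (SE 0.32, adjusted p = 7.39e-13). The 3 that rose were ANGPTL4, a secreted inhibitor of lipoprotein lipase, from a median of 7.05 (lowest 6.88, highest 7.51) to 11.50, 12.72, 11.14 and 10.58 with a change of 4.38 (SE 0.38), PLIN2, a coat protein of lipid droplets (3.08, SE 0.32), and GPAT3, an acyltransferase of the same step as GPAM (1.96, SE 0.29; named after its value was seen). Of 23 genes of cholesterol 14 fell and 4 rose. DHCR7 and FDFT1, enzymes of its synthesis, changed by -1.88 (SE 0.38) and -1.80 (SE 0.32). SOAT1, which esterifies it, rose by 1.79 (SE 0.28) and NPC1, which exports it from lysosomes, by 1.51 (SE 0.33), while SOAT2, the other esterifying enzyme, changed by -2.74 (SE 0.52), with an adjusted p of 0.0916 in the paired fit.

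Genes of fatty acid oxidation fell as well as those of synthesis. Of 35 measured genes of oxidation and ketogenesis 26 fell, 8 of them at least 2-fold, and 1 rose, with a median of -0.69. CPT2, which returns fatty acids to coenzyme A inside mitochondria, was at 8.52, 8.47, 8.81 and 8.85 in cows 1, 3, 7 and 8 against 10.25 to 10.76 (median 10.54), a change of -1.90 (SE 0.11, adjusted p = 2.97e-15). The fatty acid receptor and carrier CD36 changed by -1.97 (SE 0.42), ACOX2, a peroxisomal oxidase, by -1.44 (SE 0.14), and HSD17B4, the next peroxisomal enzyme, by -1.36 (SE 0.18). Subunits of oxidative phosphorylation fell by little: of 75 measured, 45 fell, none of them at least 2-fold, and 3 rose, with a median of -0.30. The 45 became 22 in the paired fit of the 4 cows. NDUFS1, a subunit of complex I, was at 9.75, 9.75, 9.82 and 9.79 against 10.04 to 10.98 (median 10.65), a change of -0.81 (SE 0.12, adjusted p = 1.41e-06), and NDUFA12 and NDUFS8 changed by -0.77 (SE 0.11) and -0.75 (SE 0.15). NDUFA5, another subunit of complex I, rose by 1.30 (SE 0.10). Of 25 genes of the TCA cycle and pyruvate dehydrogenase 16 fell and 4 rose. The rises became 1 without the array of cow 8 at 6 hours, and 2 without that of cow 7 at 6 hours, without that of cow 1 or 8 at -22 hours, or in the paired fit. PDK2 and PDK4, kinases that switch pyruvate dehydrogenase off, changed by -2.92 (SE 0.17) and -2.81 (SE 0.54), PDP1, the phosphatase that switches it on, by -1.27 (SE 0.22), and SUCLA2, a succinyl-CoA ligase, rose by 2.97 (SE 0.19).

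Genes of glucose production fell more often than they rose. Of 22 genes of gluconeogenesis and glycogen 14 fell, 10 of them at least 2-fold, and 3 rose, with a median of -0.90. The rises became 1 without the array of cow 7 or of cow 8 at 6 hours, or in the paired fit. PCK1, the cytosolic phosphoenolpyruvate carboxykinase, was at 11.68, 11.51, 11.70 and 11.86 in cows 1, 3, 7 and 8 against 14.39 to 14.82 (median 14.64), a change of -2.97 (SE 0.30, adjusted p = 5.37e-10). PFKFB2, which sets the level of fructose 2,6-bisphosphate, was at 4.54, 5.38, 4.34 and 4.38 against 7.80 to 8.47 (median 8.16) and changed by -3.50 (SE 0.28, adjusted p = 4.69e-12). PHKA2, the liver regulator of glycogen phosphorylase kinase, changed by -1.93 (SE 0.21). Of 26 genes of glycolysis and the pentose phosphate pathway 7 rose (26.9%) and 11 fell (42.3%), beside 26.0% and 29.3% over all genes. Without the array of cow 8 at 6 hours the rises became 4, and in the paired fit of the 4 cows the falls became 7. PFKFB3, the inducible relative of PFKFB2, rose by 2.62 (SE 0.46) and RPIA, an isomerase of ribose phosphate, by 2.65 (SE 0.19). PKLR, the liver pyruvate kinase, changed by -1.57 (SE 0.43). SLC2A3, a glucose transporter of leukocytes and neurons, changed by 1.93 (SE 0.67), and its adjusted p became 0.0842 without the array of cow 7 at 6 hours and 0.0553 without that of cow 8.

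Amino acid metabolism had falls in most members and large rises in a few. Of 44 genes of the urea cycle and amino acid breakdown 34 fell, 13 of them at least 2-fold, and 3 rose. HAL, which deaminates histidine, was at 6.79, 7.08, 7.48 and 7.78 in cows 1, 3, 7 and 8 against 9.73 to 10.81 (median 9.92), a change of -2.90 (SE 0.41, adjusted p = 4.49e-07). AMT, of the glycine cleavage system, changed by -2.88 (SE 0.29). Besides BCAT2, SDS, which turns serine into pyruvate, rose, from a median of 5.80 (lowest 3.37, highest 6.22) to 9.32, 10.78, 9.85 and 11.02, a change of 4.89 (SE 0.47, adjusted p = 2.72e-10). Of 16 genes of the methionine cycle and one-carbon units 11 fell and 3 rose. MAT1A, which makes S-adenosylmethionine in the liver, was at 10.66, 11.09, 11.38 and 11.04 against 12.76 to 13.47 (median 13.23), a change of -2.13 (SE 0.24, adjusted p = 9.25e-09), while GNMT, which consumes it, rose from a median of 3.81 (lowest 3.66, highest 4.46) to 9.52, 11.30, 9.85 and 10.37. MTHFD2, a mitochondrial folate enzyme, rose by 3.60 (SE 0.25) and TYMS, thymidylate synthase, changed by -1.74 (SE 0.25). Of 18 amino acid transporters 7 rose (38.9%) and 4 fell (22.2%), beside 26.0% and 29.3% over all genes. The median of the list was 0.04. After SLC7A5 came SLC7A1, for cationic amino acids (3.83, SE 0.42), SLC1A5, for glutamine (3.40, SE 0.31), and SLC38A2, for small neutral amino acids (3.16, SE 0.24).

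Of 10 polyamine genes 3 rose (30%) and 4 fell (40%), beside 26.0% and 29.3% over all genes. SRM, spermidine synthase, changed by 2.50 (SE 0.31) and SMS, spermine synthase, by -1.35 (SE 0.18). OAZ2, an inhibitor of ornithine decarboxylase, changed by -3.19 (SE 0.27) and SAT2, an acetyltransferase, by -3.24 (SE 0.22). Of 22 genes of purine and pyrimidine synthesis 9 rose (40.9%) and 6 fell (27.3%), beside 26.0% and 29.3% over all genes. PAICS, of the purine pathway, rose by 2.17 (SE 0.18), while ATIC, at its end, changed by -1.58 (SE 0.17). DHODH, of the pyrimidine pathway, changed by -1.85 (SE 0.18) and RRM1, of ribonucleotide reductase, by -1.90 (SE 0.13). Of 14 heme genes 7 fell and 3 rose, and UROD and UROS, later enzymes of the synthesis that ALAS1 starts, changed by -1.58 (SE 0.14) and -1.62 (SE 0.29). Among 42 genes of drug metabolism 31 fell, 14 of them at least 2-fold, and SULT1E1 and AHR rose. UGT2B10, a glucuronosyltransferase, was at 6.64, 7.67, 7.29 and 7.92 in cows 1, 3, 7 and 8 against 10.10 to 11.79 (median 11.36), a change of -3.75 (SE 0.28, adjusted p = 6.35e-13), and CYP1A1, a cytochrome P450 of aromatic compounds, changed by -2.81 (SE 0.27, adjusted p = 2.57e-10). SULT1E1, which sulfates estrogens, rose by 3.45 (SE 0.54), and AHR, the receptor that controls CYP1A1, by 1.26 (SE 0.35; named after its value was seen).

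Metal-binding genes held some of the largest rises. Of 18 genes of metallothioneins, zinc and iron 10 rose and 3 fell. MT1A was at 15.19, 15.21, 15.14 and 15.10 in cows 1, 3, 7 and 8 at 6 hours, near the upper end of the scale, against 5.84 to 12.81 (median 7.39). Cow 1 held the highest value before infusion and rose by 2.38, the other 3 cows by 7.95 to 8.66, and the mean change of 7.10 (SE 0.70, adjusted p = 3.87e-10) became 7.78 without that array. MT2A, another metallothionein, was at 15.09, 15.04, 15.09 and 15.13 against 8.15 to 13.16 (median 10.31), a change of 4.72 (SE 0.52, adjusted p = 3.72e-09) that became 5.12 without the array of cow 1 at -22 hours. SLC11A2, an iron importer, rose by 3.27 (SE 0.33) and SLC30A1, a zinc exporter, by 2.12 (SE 0.34). Of 34 antioxidant genes 17 fell and 6 rose. GPX1, a glutathione peroxidase, rose by 2.23 (SE 0.20), while GSR, which regenerates glutathione, changed by -2.32 (SE 0.20). GPX3, the secreted peroxidase, was at 11.65, 7.66, 8.78 and 8.07 against 4.21 to 9.36 (median 4.51). Cow 1 was again highest at both hours, the groups overlapped through its earlier array, and the change of 3.92 (SE 0.94, adjusted p = 8.13e-04) became 4.52 without it.

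Of 20 genes of prostaglandin and leukotriene synthesis 7 rose and 6 fell, shares (35.0% and 30.0%) near those over all genes (26.0% and 29.3%). PTGS2, the inducible cyclooxygenase, was at 7.51, 8.87, 8.53 and 8.06 in cows 1, 3, 7 and 8 against 2.62 to 3.28 (median 2.81), a change of 5.35 (SE 0.71, adjusted p = 1.53e-07). PTGS1, the constitutive form, moved the other way, at 4.67, 4.06, 3.89 and 4.17 against 7.00 to 8.52 (median 7.88), a change of -3.61 (SE 0.34, adjusted p = 1.34e-10). LTA4H, which makes leukotriene B4, changed by -2.58 (SE 0.17). Of 22 genes of apoptosis and survival 10 rose and 2 fell, among the former BIRC3, an inhibitor of apoptosis, at 14.31, 14.44, 14.20 and 14.28 against 8.56 to 9.99 (median 9.19), a change of 4.99 (SE 0.40), CDKN1A, the cell cycle inhibitor p21 (3.38, SE 0.55), BCL2A1, a relative of BCL2 (2.71, SE 0.56), and CASP4, an inflammatory caspase (2.61, SE 0.37). Of 35 genes of the cell cycle and DNA replication 12 fell (34.3%) and 6 rose (17.1%), beside 29.3% and 26.0% over all genes. The falls were 7 after a filter on dim probe sets and 6 in the paired fit. MCM6, a replication helicase subunit, changed by -1.89 (SE 0.21), PLK2, a polo kinase, by -2.68 (SE 0.23), and BTG1, a relative of BTG3, by 2.41 (SE 0.22).

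Of 42 genes of the cytoskeleton and targets of SRF 10 rose and 13 fell, shares (23.8% and 31.0%) near those over all genes, the falls being 7 in the paired fit of the 4 cows. After ANKRD1 came RFLNA, a partner of filamin, at 11.14, 11.03, 9.98 and 10.54 in cows 1, 3, 7 and 8 against 3.07 to 6.86 (median 4.46), a change of 6.01 (SE 0.47), and TUBA1A, a tubulin (3.12, SE 0.16). Of 34 genes of the extracellular matrix and its proteases 10 rose (29.4%) and 6 fell (17.6%), beside 26.0% and 29.3% over all genes. The falls were 3 in the paired fit and 10 with array weights. TNC was at 12.38, 12.14, 12.27 and 12.79 against 5.33 to 6.77 (median 6.17), and ADAMTS4, a protease of proteoglycans, at 6.19, 7.43, 7.10 and 6.98 against 2.03 to 2.20 (median 2.15), a change of 4.79 (SE 0.65). Of 26 genes of the TGF-β family and ID proteins 9 rose (34.6%) and 8 fell (30.8%), beside 26.0% and 29.3% over all genes. The rises were 5 in the paired fit. TGIF1, a repressor of this pathway, rose by 3.10 (SE 0.31), INHBA, a subunit of activin, by 3.02 (SE 0.69), ID2, an inhibitor of helix-loop-helix factors, changed by -2.25 (SE 0.27), and IHH, a hedgehog ligand, by -4.14 (SE 0.27). Of 35 lysosome genes 19 fell and 7 rose, and the rises became 4 without the array of cow 1 at 6 hours and 4 in the paired fit. CTSC, a cathepsin that activates proteases of granulocytes, rose by 2.83 (SE 0.20). CTSL, another cathepsin, changed by 1.44 (SE 0.56) with values of 4.77, 3.23, 6.44 and 3.36 against 2.84 to 3.23 (median 3.00), and its adjusted p became 0.278 without the array of cow 7 at 6 hours, 0.0867 without that of cow 1 at 6 hours, 0.0516 without that of cow 1 at -22 hours and 0.208 in the paired fit.

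Markers of other cell types were counted beside these lists. Of 12 neutrophil markers 3 rose, a share (25%) near that over all genes (26.0%). These were S100A8 by 5.17 (SE 0.42), S100A9 by 4.93 (SE 0.43) and S100A12 by 4.54 (SE 0.42) (named after their values were seen). All of them are calcium-binding proteins of neutrophils and activated monocytes. The other 9 did not pass the test, and 8 of the 12, including the granule proteins MPO and ELANE, lay below a log2 value of 5 on every array of both hours. The mean of the list went from 3.22 to 3.52 at -22 hours to 4.51 to 4.81 at 6 hours. Of 14 endothelial markers 8 fell (57.1%, beside 29.3% over all genes), 7 of them at least 2-fold, and 2 rose. The mean of the list went from between 6.00 and 6.90 to between 5.46 and 5.75. Besides CLDN5, the falls included PECAM1 at -1.90 (SE 0.22), ENG at -1.61 (SE 0.24) and STAB1, a scavenger receptor of sinusoids, at -1.49 (SE 0.20), whereas LYVE1 (-0.29, SE 0.27) and STAB2 (-0.24, SE 0.17), also of sinusoids, did not pass the test (named after their values were seen). RHOJ and CLDN5, among the falls above, are themselves endothelial genes. Of 11 macrophage markers 5 fell (45.5%, beside 29.3% over all genes) and CD14 rose. The falls became 3 without the array of cow 1 or that of cow 3 at 6 hours. Of 17 markers of T and natural killer cells 1 rose and none fell, with 3 falls without the array of cow 1 at -22 hours, 2 without that of cow 6 or 7, 1 without that of cow 4 or 8 or of cow 3 at 6 hours, 2 with the cow as a replicate block and 4 with array weights. Of 12 stellate and fibroblast markers 3 fell (25%, beside 29.3% over all genes), and of 7 cholangiocyte markers 2 rose (28.6%, beside 26.0%). None of 7 B cell or 8 erythrocyte markers was called in either direction at an adjusted p below 0.05 in limma, but 2 erythrocyte markers were called higher without the array of cow 7 at -22 hours and 6 with array weights. Of the 15 hepatocyte markers 9 fell (60%, beside 29.3% over all genes) and 2 rose, with a median of -0.33. The endothelial rises became none without the array of cow 3 at -22 hours or of cow 7 or 8 at 6 hours. The part of cell composition in the results was not tested.

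The size of the response differed between the 4 cows. When the change of a cow over all 9155 genes was projected on the mean change of the other 3 cows, it amounted to 82.3% of it in cow 1, 92.5% in cow 3, 102% in cow 8 and 106% in cow 7. Of the 48 process lists the positive acute phase proteins differed most, with a mean change of 1.15 in cow 1, 2.17 in cow 3, 2.39 in cow 8 and 2.75 in cow 7. Cow 1 stood highest in this list before infusion. Genes of the ATF4 list changed by 0.78 in cow 1, 1.22 in cow 8, 1.70 in cow 7 and 1.95 in cow 3. Interferon-stimulated genes changed by -0.09 in cow 3 and by 0.54 to 0.91 in the other cows. Among lists that fell, bile acid genes changed by -1.94 to -1.59 and genes of gluconeogenesis and glycogen by -1.13 to -0.98.

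**Figure D5:**
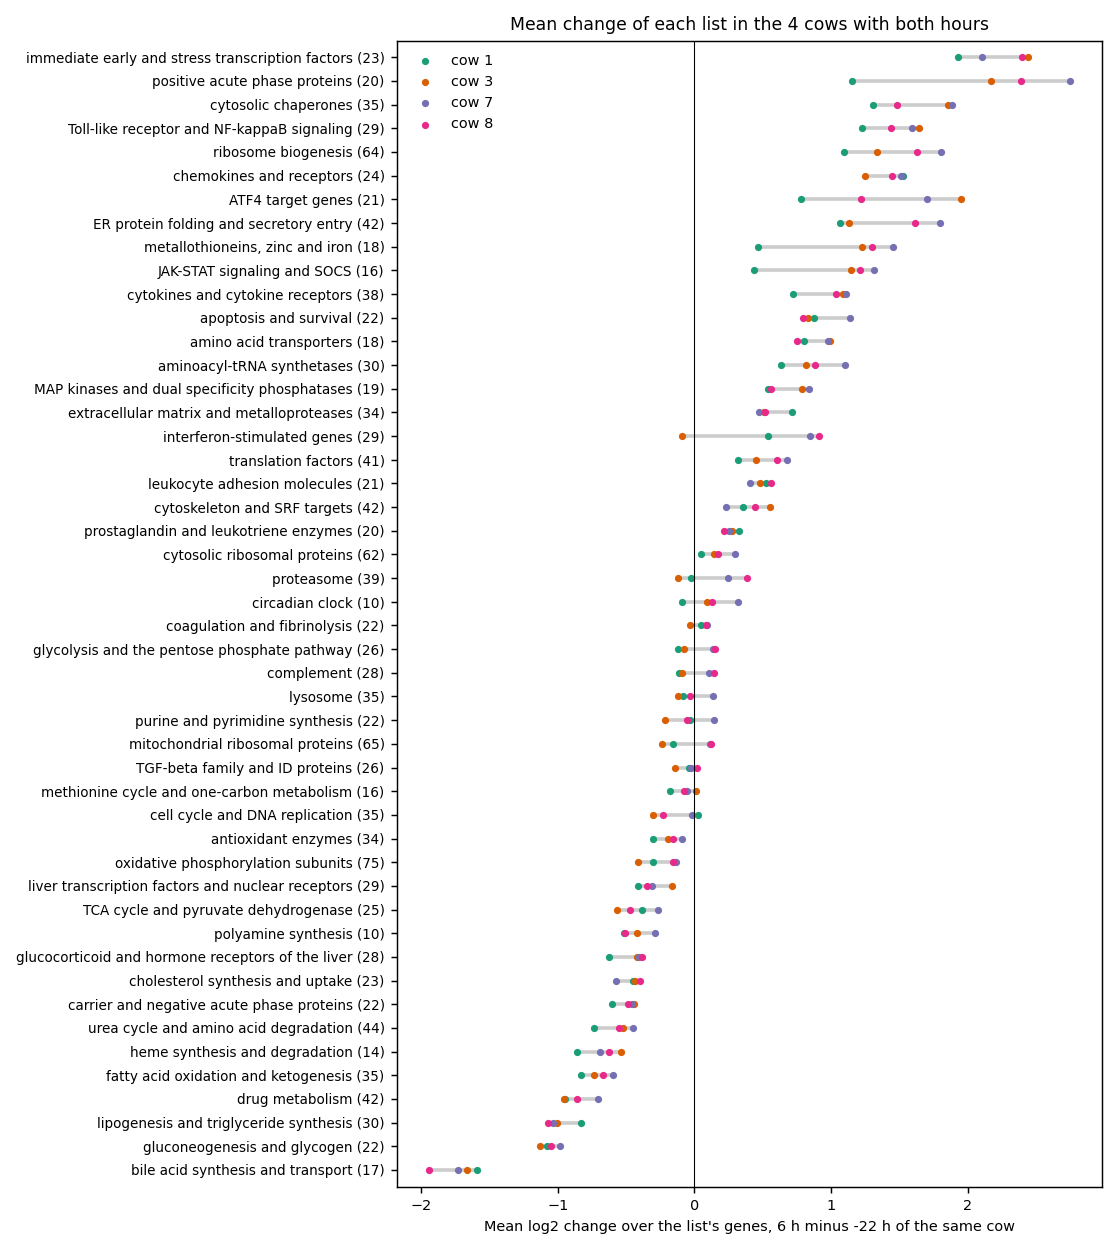
Mean log2 change over the measured genes of each of 48 process lists (number in brackets) between -22 and 6 hours within cows 1, 3, 7 and 8; the grey line spans the 4 cows. Cow 1 has the smallest mean rise for the positive acute phase proteins (1.15) and the ATF4 list (0.78), and cow 3 the lowest value for interferon-stimulated genes (-0.09).

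Where few genes of a list moved in 1 direction, single arrays could change the count. The fall among cytosolic chaperones became 2 without the array of cow 1, 6, 7 or 8 at -22 hours. The 2 falls of Toll-like receptor and NF-κB genes became 1 without the array of cow 1 at -22 hours or of cow 1, 7 or 8 at 6 hours, and the 2 falls of apoptosis genes became 1 without that of cow 1 or 8 at 6 hours. The rise among fatty acid oxidation genes was lost without the array of cow 7 or 8 at 6 hours. In folding of the endoplasmic reticulum the 2 falls became 1 without the array of cow 3 at 6 hours. Without the array of cow 1 or 3 at 6 hours, 1 immediate early factor fell. The 2 hepatocyte rises became 1 without the array of cow 3, 6, 7 or 8 at -22 hours or of cow 1, 7 or 8 at 6 hours.

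Genes measured by several probe sets did not always give 1 answer. Of 2913 such genes, all probe sets were called in the same direction for 747, some of them for 1129 and none for 959, and 78 had calls in both directions, 10 of them with at least 2-fold changes both ways. WARS1, the cytosolic tryptophan synthetase, was read through a probe set that was at 8.74, 8.37, 8.59 and 8.44 in cows 1, 3, 7 and 8 against 10.08 to 10.97 (median 10.71), a change of -2.07 (SE 0.15, adjusted p = 6.58e-13), while its 3 other probe sets rose by 3.19, 3.71 and 4.03. HEATR1, a factor of ribosome biogenesis, changed by -1.42 (SE 0.12) through its brightest probe set and by 1.99 and 1.13 through the others. For both genes the mean of the probe sets had the opposite sign, and the direction of WARS1 and HEATR1 is therefore uncertain here. RNF123, a ubiquitin ligase, rose by 4.88 (SE 0.43) and fell by 1.76 on the log2 scale through another probe set. WSB2, a substrate receptor of a ubiquitin ligase, rose by 1.45 (SE 0.14) and fell by 1.80 through another. ENSA, an inhibitor of protein phosphatase 2A, changed by -1.37 (SE 0.23) and by 1.41 through another, with a mean of -0.002, and its adjusted p was 0.055 in the paired fit. The annotation gives the name EED, a Polycomb protein, to 23 probe sets, whose changes ran from -2.74 to 2.78, so no change is given for it.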

How the data were processed

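Per the file headers and the labels, the authors hybridized biotin-labelled liver RNA to the Affymetrix Bovine Genome Array and deposited log2 intensities made with GCRMA, which removes background by probe sequence, applies quantile normalization and summarizes each probe set. Such values are comparable over arrays for 1 probe set, not between probe sets, and changes that start or end near the low end of the scale are understated. From the deposited log2 values, limma 3.58.1 (R 4.3.3) fitted 1 mean for each of the 6 hours over all 36 arrays, without a cow term, of which the study's methods make no mention, and the 6 hour mean was compared with that at -22 hours. Calls were made at a Benjamini-Hochberg adjusted p below 0.05 over 24128 probe sets, and a second count asked for a log2 change of at least 1. The 112 control probe sets were counted among them. The platform annotation named 1 gene for 13318 probe sets (13263 with a RefSeq match, no symbol changed) and several genes for 86, and 10724 are unnamed here. For each of 9155 genes, the brightest of its probe sets by the mean of all arrays was used.

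Of 1876 symbols written in 57 lists, 48 of processes and 9 of cell types, 1483 were measured. A list is described by its counts and median, and no test was run on it. Members and lists were chosen with earlier results of these data known. Genes were named by rule: the 12 largest rises and 12 largest falls among genes called and moving the same way in all 4 cows, up to 4 called genes of each process list, TNF, IL1B, IL6, IL10, HP, SAA3 and ORM1, the 8 sharpest peaks and 8 sharpest troughs at 6 hours, the 6 genes with the largest opposite calls between probe sets, and the 6 called genes with the largest SD over the cows at -22 hours. Provisional symbols were left out of the largest changes.

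Cow numbers in the labels pair arrays over hours. Deviations from the hourly means of these 4 cows correlated at 0.300 on average between the 2 arrays of a cow (0.190 to 0.361 in the 4 cows). The mean between different cows was -0.101. Subtracting the means largely fixes that value once the first is known, so it is not a separate comparison. Fits with the cow as a replicate block were run as alternatives. The paired fit named in the text uses only the 8 arrays of the 4 cows with both hours. Other alternatives were array weights, a variance trend, median centring, another quantile normalization, a filter on dim probe sets, averaging all probe sets of a gene, Bonferroni adjustment, the 12 arrays alone, and leaving out each array in turn.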

Additional observations from a re-analysis of the deposited data

Results flagged for a closer look

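Within each hour, the highest and lowest arrays were set against their neighbours for the 47 genes named for the largest changes, the sharpest extremes or the study's Q-PCR and for 3 array properties. Of 100 groups tested, 13 held a value far from the rest, where chance gives about 1 in 20 groups. At -22 hours cow 1 was far above the other 7 cows for SLCO4A1 (5.75, next 3.25) and CREM (6.50, next 5.42). Cow 3 was above the others at that hour for GNMT (4.46, next 3.99) and OLR1 (2.88, next 2.69), both at the dim end. Cow 4 stood out for TNFRSF6B (1.67, next 1.64), a distance that matters only because the other values are nearly equal. TMEM101 was highest in cow 2 (10.78, next 10.41). The array of cow 7 at -22 hours had the lowest median (4.15, next 4.28) and the highest hybridization spike-ins (13.13, next 11.35).

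At 6 hours cow 3 was the highest for CREM (11.83, next 11.18). Cow 7 was the highest for THRSP (2.84, next 2.25) and NFATC3 (3.51, next 3.10), and cow 8 for ADAMTS1 (6.03, next 5.22). ABCG8 was lowest in cow 8 (2.24, next 2.33). None of these values brought a 6 hour array into the range of that gene at -22 hours.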

How the results depend on the processing

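Bonferroni adjustment below 0.01, the study's own threshold, left 3932 probe sets (1922 higher, 2010 lower, 3395 at least 2-fold), 2037 genes (977 higher, 1060 lower) and 97 genes with an extreme at 6 hours (26 highest, 71 lowest). The study applied that threshold to changes between successive hours, not to 6 against -22 hours, so its own count of transcripts is not comparable. With only the 4 cows with both hours and the cow as replicate block, 6947 probe sets were called, 3065 of them higher, and 1542 genes were higher. Without a replicate block these 8 arrays gave 7183 probe sets, and leaving out 1 of the 4 cows gave 4560 (without cow 1) to 5627 (without cow 7). With array weights 9790 probe sets were higher, and 62.1% of the calls were higher against 51.4%. Over all arrays the fixed replicate block called 5038 genes, of which 4735 were shared with the 5062 reported and none had the opposite direction, and it changed no call of a named gene. Leaving out single arrays gave 4435 to 8044 higher probe sets, the highest without cow 7 at -22 hours, and 4529 to 5662 genes. The mean over probe sets reversed WARS1 (2.21) and HEATR1 (0.57), for which single probe sets disagree. It gave 15 of all genes the opposite call, while no other named gene turned under any alternative. Median centring moved the median change of all probe sets from 0.034 to 0.057. Over all alternatives 89 calls of named genes were lost, 49 of them under Bonferroni adjustment, and 217 counts over lists moved by over 1.5 times, 86 of them there. The cause of these differences was not tested. TNF and IL6 lay near the low end of the scale, where a small change may not be seen, and detection there was not tested. The study's Q-PCR of the same liver samples reported both as raised.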

Other observations

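On an axis from the mean array at -22 hours (0%) to that at 6 hours (100%), the array of cow 1 at -22 hours lay at 14.6%, that of cow 3 at 5.84% and those of the other cows at -2.47% to 0.87%. Arrays at 3 hours lay at 27.5% to 35.0%, those at 9 hours at 88.5% to 100.1%, those at 12 hours at 62.5% to 83.5% and those at 48 hours at 1.74% to 29.0%.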
